A study of Arabidopsis thaliana with 6 samples.

Results

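Transcript levels of the core circadian clock were examined in whole seedlings of Arabidopsis thaliana, in the mutant pp7l-1 and in the wild type Col. The core clock is taken as 10 genes of 33341 counted, picked by their locus codes: CCA1, LHY, RVE8, PRR9 and PRR7, whose transcripts peak between dawn and midday in published time courses, and PRR5, GI, TOC1, ELF4 and LUX, which peak in the afternoon or evening. There were 3 libraries labelled pp7l-1 and 3 of the wild type, all from seedlings aged 4 days. The allele pp7l-1 is named for PP7L, a phosphatase-like protein, and its lesion is not described in the labels. Both genotypes had been kept in long days on agar with sucrose, under white fluorescent lamps. No source used here gives the hour of harvest, so the levels below belong to a time of day that is unknown. The series concerns chloroplast development, and the question asked here is whether the clock genes differ between the genotypes.

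The plant clock is a ring of repressors that follow each other through the day. CCA1 and LHY, a pair of MYB-related proteins made at dawn, repress the evening genes, and the pseudo-response regulators PRR9, PRR7, PRR5 and TOC1 appear in turn and repress CCA1 and LHY. At dusk ELF4, ELF3 and LUX form the evening complex, which represses PRR9, PRR7, GI and LUX itself, while RVE8, a relative of CCA1, activates evening genes.

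These repressors and activators meet on short DNA motifs, which are shown here because the evening element divides the 10 genes as their phase does. The evening element (AAAATATCT, read on both strands), to which CCA1, LHY and RVE8 bind, lay within 1000 bases before the annotated start of 5 of 5 afternoon or evening genes and of 0 of 5 morning genes. It is found in 7.24% of 27443 protein-coding genes over the same span. The G-box (CACGTG), a site for light-signalling factors, lay before 5 of 5 morning genes and 1 of 5 evening genes, LUX, against 14.8% of all genes. The stretches below are read 5′ to 3′ along each gene's own strand from the RefSeq assembly TAIR10.1, with evening elements and G-boxes in capitals. The evening stretches hold the evening element, 2 of them in PRR5 and in GI, and that of PRR7 holds its G-box.
TOC1, chr5:24674763-24674862, plus strand: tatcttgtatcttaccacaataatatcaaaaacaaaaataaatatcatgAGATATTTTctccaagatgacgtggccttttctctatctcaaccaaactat
LUX, chr3:17182942-17183041, plus strand: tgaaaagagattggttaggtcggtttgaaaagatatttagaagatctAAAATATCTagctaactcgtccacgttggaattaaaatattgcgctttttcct
PRR5, chr5:8358717-8358856, minus strand: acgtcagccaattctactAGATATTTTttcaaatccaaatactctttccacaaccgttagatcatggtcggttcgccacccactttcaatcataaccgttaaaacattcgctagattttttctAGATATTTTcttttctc
GI, chr1:8060921-8061020, plus strand: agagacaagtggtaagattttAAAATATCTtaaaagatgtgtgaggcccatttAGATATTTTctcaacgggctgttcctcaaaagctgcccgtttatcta
ELF4, chr2:16735434-16735533, minus strand: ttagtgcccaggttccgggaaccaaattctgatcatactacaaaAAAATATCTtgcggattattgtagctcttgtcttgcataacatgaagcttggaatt
PRR7, chr5:642181-642280, minus strand: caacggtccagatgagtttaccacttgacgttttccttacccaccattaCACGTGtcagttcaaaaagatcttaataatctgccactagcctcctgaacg

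The elements of TOC1 and LUX began 151 and 53 bases before the start, and the single one of ELF4 at 536 bases. GI had 3, at 809, 777 and 591 bases, and PRR5 also had 3, at 716, 292 and 187 bases. The CCA1-binding and LUX-binding sites did not follow the phase. The CCA1-binding site AAAAATCT lay before LHY, PRR9 and PRR5 (21.1% of all genes). A LUX-binding site was searched as GATACG, found before PRR7 and ELF4 (16.9% of all genes), and as GATTCG, found before LHY, PRR9, PRR7, GI, TOC1 and LUX (28.2%). The evening element and the CCA1-binding site share letters but no position in these genes. A match is a description of the sequence and does not show binding.

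**Figure D1:**
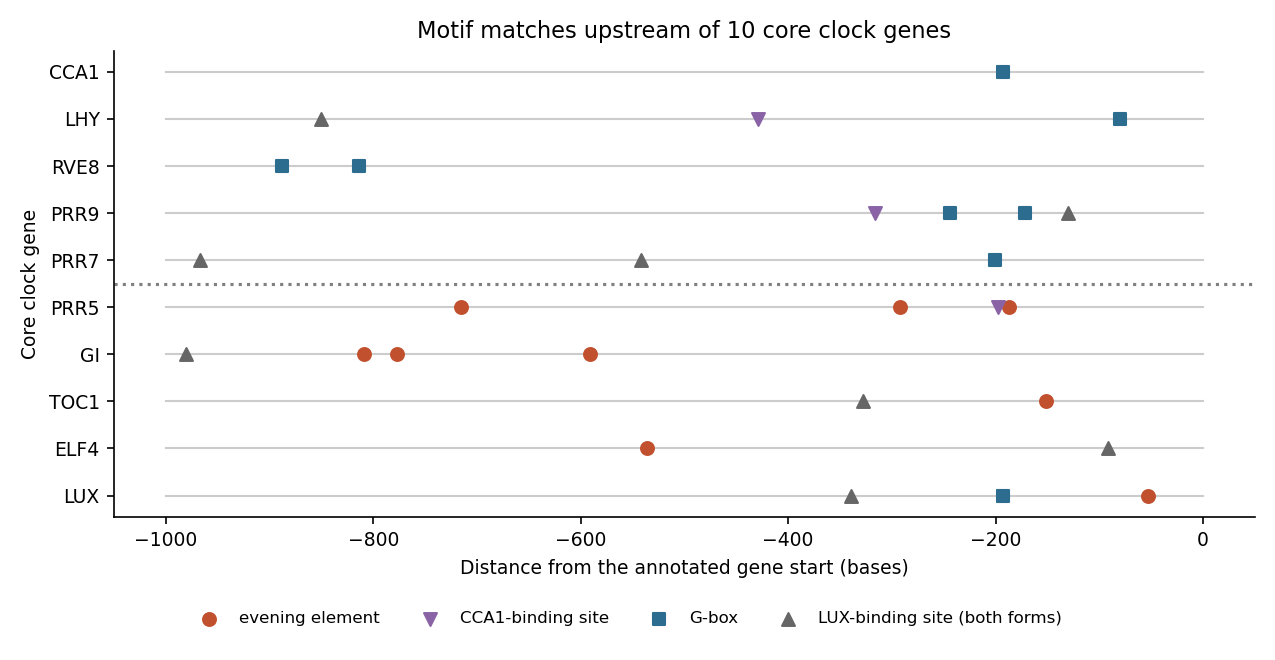
Motif matches in the 1000 bases before the annotated start of each of the 10 core clock genes (x axis, distance from the start in bases, both strands; the dotted line parts morning genes above from afternoon or evening genes below). Evening elements stand before 5 of 5 genes below the line and 0 of 5 above it, and G-boxes before 5 of 5 above it and 1 below.

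The libraries labelled pp7l-1 held between 11269557 and 13724880 counts and those of the wild type between 14342054 and 16744328. Nuclear genes gave 4812618 to 5068284 of the counts under the label pp7l-1 and 3872923 to 5277315 in the wild type, while plastid transcripts took 55.1% to 63.2% of the libraries labelled pp7l-1 and 67.9% to 72.5% of the wild-type libraries. Nuclear ribosomal RNA genes, which are included in the nuclear counts, took 7.56% of all counts in pp7l-1 replicate 1 and at most 0.0151% in the other libraries. PP7L (AT5G10900) itself had 280, 247 and 315 counts in the libraries labelled pp7l-1, against 24, 22 and 21 in the wild type. The gene named by the allele was thus read more often where the label says mutant. The reason was not tested, and every direction below rests on the labels. Of 4 seed markers 4 rose, with a summed level of 29.4 to 118 CPM (counts scaled to a library of 1e+06 with trimmed-mean factors, TMM) in the libraries labelled pp7l-1 and 3.47 to 4.95 CPM in the wild type. Of 4 tested root markers the factors SHR and SCR rose, and the root hair genes COBL9 and EXPA7 fell, and of 4 shoot markers AS1 rose. In whole seedlings, fewer cells of a type and less RNA per cell cannot be told apart. Whether organs or stored seed RNA had a part in the clock values was not tested.

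Levels between genes were compared as CPM per kb of exon. In both genotypes GI was the most abundant of the 10 genes, at 10.04 ± 1.31 CPM per kb (SD, n = 3) under the label pp7l-1 and 8.86 ± 0.974 CPM per kb in the wild type. TOC1, PRR5 and PRR7 followed, and then LUX. Under the label pp7l-1, TOC1 was at 5.92 ± 0.323 CPM per kb, PRR5 at 5.97 ± 1.72, PRR7 at 3.79 ± 0.273 and LUX at 2.204 ± 0.240. In the wild type, TOC1 was at 7.55 ± 0.584 CPM per kb, PRR5 at 5.81 ± 1.07, PRR7 at 5.41 ± 0.108 and LUX at 2.499 ± 0.304. The other 5 genes were scarce in every library, at means of 0.151 to 0.424 CPM per kb in the libraries labelled pp7l-1 and 0.164 to 1.12 CPM per kb in the wild type, with LHY lowest in both.

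The step from LUX, the fifth in the order, to ELF4, the sixth, was clear of the spread in each genotype. PRR5 overlapped both TOC1 and PRR7 in each genotype. Below the step each gene overlapped the next. In every library, then, the genes known to peak from midday to evening, other than ELF4, stood above the dawn genes CCA1, LHY and RVE8 and above PRR9, and this order held in both genotypes.

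**Figure D2:**
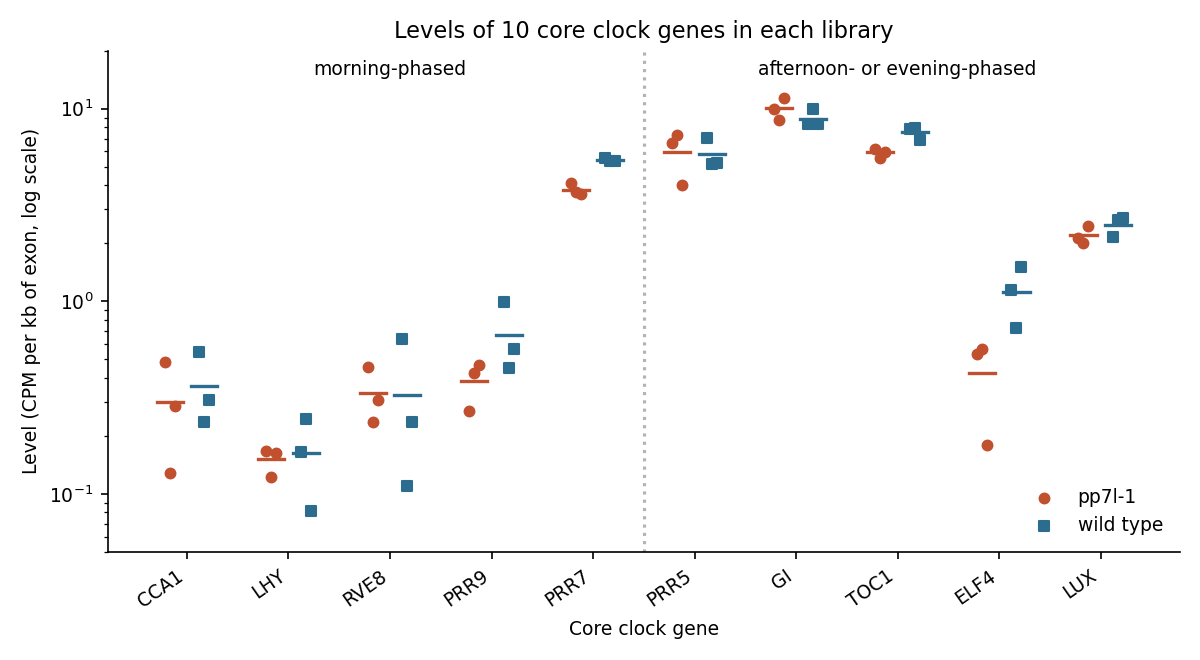
Level of each core clock gene in CPM per kb of exon on a log axis, with 1 point per library, circles for pp7l-1 and squares for the wild type, and a bar at each mean. PRR7 and TOC1 lie lower in pp7l-1 with no overlap between genotypes, as does the scarce ELF4, and the other genes overlap.

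Between the genotypes, PRR7 was the only tested member of the core clock to pass the threshold. By edgeR's quasi-likelihood test across 18115 genes, 8 of the 10 members could be tested, of which 1 fell, PRR7, 0 rose and 7 did not pass. Over all tested genes 21.9% were called, 10.6% higher and 11.3% lower. The 1 call among 8 members (12.5%) is too few to set against that share. At an unadjusted edgeR p under 0.05 there was 1 of the 8 members, again PRR7, beside 6277 of all 18115 tested genes. Neither DESeq2 nor limma voom called any member higher. The members had a median log2 fold change of -0.24, against -0.0075 over all tested genes. For the 4 tested morning genes the median was -0.41 and for the 4 tested evening genes -0.073. LHY and ELF4 had too few counts for the filter. With no count filter, which takes in both, the medians over all 5 genes of each class lay closer together, at -0.29 for the morning genes and -0.15 for the evening genes, and no member was called.

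CCA1 (AT2G46830, chromosome 2, 19245591 to 19248915, plus strand), the dawn repressor, had 16, 5 and 14 counts in the libraries labelled pp7l-1, against 21, 10 and 9 in the wild type. The ranges overlapped in part. Its level was 0.812 ± 0.482 CPM under the label pp7l-1 and 0.988 ± 0.441 CPM in the wild type, a log2 fold change of -0.31 with a 95% interval of -1.33 to 0.70 (edgeR adjusted p = 0.686), and 0.12 without wild-type replicate 1 or 0.064 without pp7l-1 replicate 2. Its partner LHY (AT1G01060, chromosome 1, 33365 to 37871, minus strand) had 7, 6 and 10 counts in the libraries labelled pp7l-1, against 8, 13 and 3 in the wild type, and was not tested. Its counts summed to 23 under the label pp7l-1 and to 24 in the wild type, a ratio after scaling of 0.870, with an exact 95% interval of 0.469 to 1.61 that covers counting error only.

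RVE8 (AT3G09600, chromosome 3, 2946239 to 2949017, plus strand), the activator of evening genes, had 13, 8 and 13 counts in the libraries labelled pp7l-1, against 21, 4 and 6 in the wild type. Wild-type replicate 1 had the highest count, and the libraries labelled pp7l-1 lay within the range of the wild type. The log2 fold change was 0.0033 ± 0.55 (SE), with an interval of -1.16 to 1.16 and an adjusted p of 0.998 by edgeR. Differences of CCA1, LHY and RVE8 within these intervals were not detectable at this depth. Of the 5 morning genes, 4 had their highest wild-type level in wild-type replicate 1, with LHY as the exception. The afternoon gene PRR5 did so too, while GI, TOC1, ELF4 and LUX did not. For PRR7 the wild-type libraries lay close together, and CCA1, RVE8 and PRR9 had at most 30 counts per library. The share of all genes highest in wild-type replicate 1 was not computed, so nothing is read from this count.

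PRR9 (AT2G46790, chromosome 2, 19232607 to 19235179, plus strand), the first of the pseudo-response regulators to appear after dawn, had 7, 13 and 18 counts in the libraries labelled pp7l-1, against 30, 15 and 13 in the wild type. After scaling, 0.573, 0.905 and 1.0014 CPM under the label pp7l-1 stood against 2.12, 0.965 and 1.21 CPM in the wild type, and the groups overlapped only in that the highest library labelled pp7l-1 lay above the lowest of the wild type. The log2 fold change was -0.76 ± 0.40, with an interval of -1.61 to 0.089 (edgeR adjusted p = 0.191), and -0.35 without wild-type replicate 1.

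PRR7 (AT5G02810, chromosome 5, 637681 to 642030, minus strand) follows PRR9 and represses CCA1 and LHY through the day. It had 162, 171 and 209 counts in the libraries labelled pp7l-1, against 253, 268 and 187 in the wild type. Scaled, these were 13.3, 11.9 and 11.6 CPM under the label pp7l-1, against 17.9, 17.2 and 17.4 CPM in the wild type, and all 3 libraries labelled pp7l-1 lay below all 3 of the wild type. PRR7 fell by 0.51 ± 0.17 on the log2 scale, with an interval of -0.88 to -0.15 and an edgeR adjusted p of 0.0418. The call was close to the threshold. It was lost without any single library (adjusted p between 0.0830 and 0.116), with DESeq2 (0.0876), with upper quartile scaling (0.0581) and without a count filter (0.0866), while the log2 fold change stayed between -0.57 and -0.46 in these fits. Scaled on library size alone it was -0.10, where the median of all genes moved up by 0.41.

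PRR5 (AT5G24470, chromosome 5, 8356204 to 8358546, minus strand), the afternoon member of the family, had 136, 175 and 121 counts in the libraries labelled pp7l-1, against 167, 135 and 94 in the wild type. Scaled, 11.1, 12.2 and 6.73 CPM under the label pp7l-1 stood against 11.8, 8.69 and 8.72 CPM in the wild type, so that both the highest and the lowest library were labelled pp7l-1. The log2 fold change was 0.030 ± 0.23 (interval -0.45 to 0.51, edgeR adjusted p = 0.944), and its sign changed with limma voom and when a library was left out.

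TOC1 (AT5G61380, chromosome 5, 24674963 to 24678550, plus strand), the evening member of the family and the repressor of CCA1 and LHY at night, had 213, 225 and 302 counts in the libraries labelled pp7l-1, against 311, 346 and 208 in the wild type. Scaled, these were 17.4, 15.7 and 16.8 CPM under the label pp7l-1, against 22.0, 22.3 and 19.3 CPM in the wild type. The groups did not overlap, which held for 2 of the 8 tested members, PRR7 and TOC1, and for 38.1% of all tested genes. The log2 fold change of -0.35 ± 0.17 did not pass (interval -0.72 to 0.018, edgeR adjusted p = 0.165), and it was 0.061 when scaled on library size alone.

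GI (AT1G22770, chromosome 1, 8061751 to 8067790, plus strand), a large nuclear and cytosolic protein that stabilises the photoreceptor ZTL, had 524, 542 and 881 counts in the libraries labelled pp7l-1, against 505, 668 and 385 in the wild type. Scaled, 42.9, 37.7 and 49.0 CPM under the label pp7l-1 stood against 35.7, 43.0 and 35.7 CPM in the wild type, and the ranges overlapped. The log2 fold change was 0.18 ± 0.19 (interval -0.22 to 0.58, edgeR adjusted p = 0.536).

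LUX (AT3G46640, chromosome 3, 17183042 to 17186959, plus strand), the DNA-binding subunit of the evening complex, had 102, 113 and 174 counts in the libraries labelled pp7l-1, against 119, 161 and 114 in the wild type. Of its exon bases 17.8% lie in another gene, on either strand, so its reads are partly uncertain. Scaled, 8.36, 7.86 and 9.68 CPM under the label pp7l-1 overlapped 8.42, 10.4 and 10.6 CPM in the wild type, and the log2 fold change was -0.18 ± 0.18 (interval -0.56 to 0.21, edgeR adjusted p = 0.532), or 0.26 when scaled on library size alone.

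ELF4 (AT2G40080, chromosome 2, 16734294 to 16734953, minus strand), a small protein of the evening complex, had 4, 5 and 2 counts in the libraries labelled pp7l-1, against 10, 7 and 10 in the wild type. Scaled, 0.328, 0.348 and 0.111 CPM under the label pp7l-1 lay below 0.707, 0.450 and 0.928 CPM in the wild type without overlap. The counts summed to 11 under the label pp7l-1 and to 27 in the wild type, a ratio after scaling of 0.370 with an exact 95% interval of 0.166 to 0.770 for counting error. Without a count filter edgeR gave a log2 fold change of -1.38 ± 0.64 and an adjusted p of 0.128, so the difference did not pass. ELF3 (AT2G25930), the scaffold of the complex, was at 10.6 ± 1.91 CPM under the label pp7l-1 and 9.90 ± 1.39 CPM in the wild type, with a log2 fold change of 0.11 ± 0.19 (adjusted p = 0.732). BOA (AT5G59570), the close relative of LUX, was at 1.04 ± 0.466 CPM under the label pp7l-1 and 2.03 ± 0.652 CPM in the wild type and did not pass either (-0.94 ± 0.38, adjusted p = 0.0858). In BOA 45.9% of the exon bases lie in another gene.

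**Figure D3:**
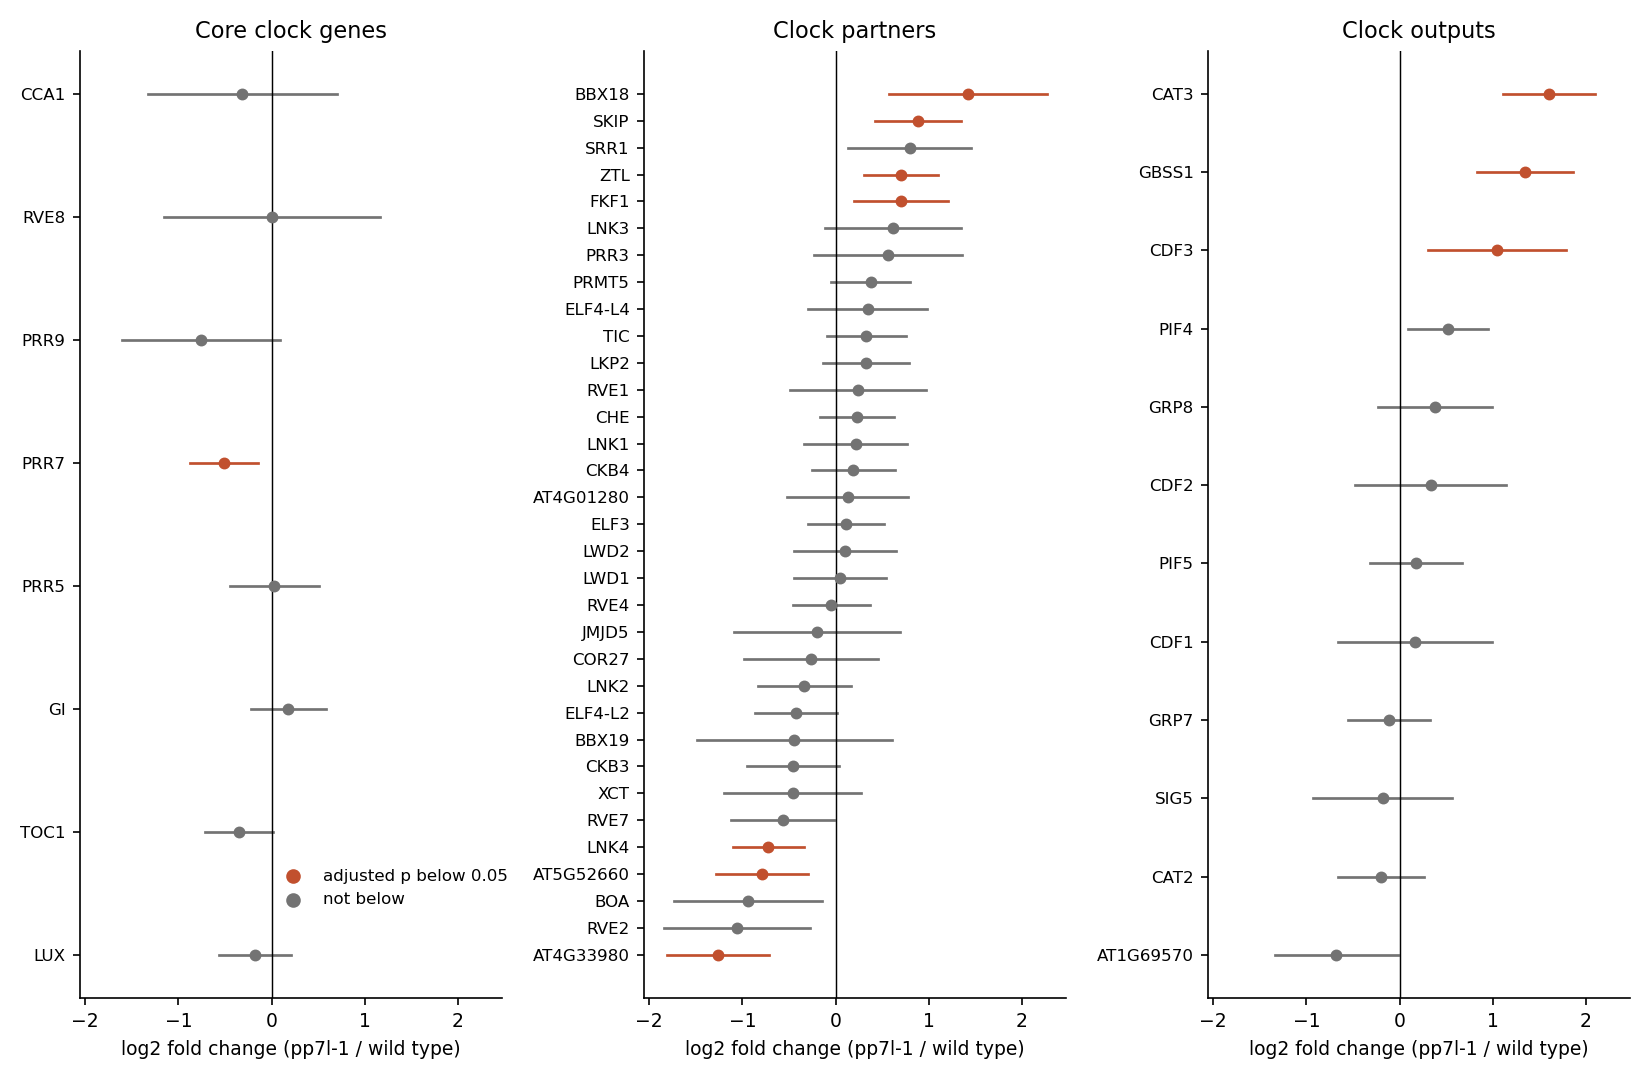
Log2 fold change of pp7l-1 over wild type with its 95% interval for the tested genes of the core clock (in order of phase), the partner list and the output list (each by size), orange where the edgeR adjusted p is below 0.05. Of 8 core genes 1 is orange, PRR7, and among the core genes the widest intervals belong to the scarce RVE8 and CCA1.

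Ratios of counts within a library are free of any scaling between libraries. They were chosen after the values above had been seen, and 7 were computed. PRR7 to GI was 0.309, 0.315 and 0.237 in the libraries labelled pp7l-1, against 0.501, 0.401 and 0.486 in the wild type. TOC1 to GI was 0.406, 0.415 and 0.343 under the label pp7l-1, against 0.616, 0.518 and 0.540 in the wild type. In both ratios the groups stood apart, as they did in PRR7 to TOC1, PRR7 to LUX, TOC1 to ZTL and PRR5 to ZTL. Each of these ratios holds PRR7, TOC1 or ZTL, whose levels were already apart on their own, so they are no further support. The share of such ratios among other gene pairs was not computed. The exact two-sided permutation p was 0.1 for each, and a design of 3 against 3 cannot give less. Adjusted over the 7 ratios it was 0.117. PRR7 to PRR5 overlapped between the genotypes (exact permutation p = 0.2).

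Around the core, 36 partner genes were listed, of which 33 could be tested. Of these 4 rose, 3 fell and 26 did not pass, and 21.2% called stands beside 21.9% over all genes. The rises included 2 of the 3 genes of the ZTL family, blue-light receptors that mark clock proteins for breakdown. ZTL (AT5G57360), which targets TOC1 and PRR5, was at 10.6, 12.0 and 10.3 CPM in libraries labelled pp7l-1, against 5.59, 7.14 and 7.61 CPM in the wild type. It rose by 0.70 ± 0.19 on the log2 scale (edgeR adjusted p = 0.0142, or 0.0769 without wild-type replicate 1). Counts of TOC1 per count of ZTL were 1.64, 1.31 and 1.62 under the label pp7l-1, against 3.94, 3.12 and 2.54 in the wild type. TOC1 was lower and ZTL higher, each without overlap, so this ratio had to stand apart and is no further result.

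FKF1 (AT1G68050), which acts with GI on the flowering repressors of the CDF family, was at 4.67, 4.04 and 4.34 CPM in libraries labelled pp7l-1, against 3.18, 2.64 and 2.13 CPM in the wild type. It rose by 0.70 ± 0.24 with an adjusted p of 0.0462, which was above 0.05 with DESeq2 and when any library other than pp7l-1 replicate 2 was left out. LKP2, the third of the family, had 0.33 ± 0.22 and did not pass. The other rises were SKIP (AT1G77180), a splicing factor needed for clock pace, with 7.39 ± 0.968 CPM under the label pp7l-1 and 4.02 ± 0.810 CPM in the wild type (0.89 ± 0.22, adjusted p = 0.00875), and BBX18 (AT2G21320), a B-box protein. BBX18 was at 3.44, 2.57 and 1.61 CPM under the label pp7l-1, against 1.41, 0.836 and 0.464 CPM in the wild type (1.42 ± 0.40, adjusted p = 0.0186). Without pp7l-1 replicate 1, or without replicate 2 or 3 of the wild type, it did not pass.

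The LNK proteins are coactivators that work with RVE8 on evening genes. LNK4 (AT5G06980) fell by 0.72 ± 0.18 on the log2 scale, at 8.03, 7.86 and 9.29 CPM in libraries labelled pp7l-1 and 13.9, 12.2 and 15.7 CPM in the wild type (edgeR adjusted p = 0.0104). It did not pass without pp7l-1 replicate 1 (0.0503) or wild-type replicate 3 (0.0588). LNK1, LNK2 and LNK3 did not pass, with log2 fold changes of 0.21, -0.33 and 0.61. Of 7 genes listed with the RVE family 6 were tested and 1 fell, AT5G52660, annotated as a homeodomain-like protein, at 3.15 ± 0.673 CPM under the label pp7l-1 and 5.37 ± 0.559 CPM in the wild type (-0.79 ± 0.23, adjusted p = 0.0245, and 0.0729 with DESeq2). Leaving out pp7l-1 replicate 1 or 3, or wild-type replicate 1 or 2, also ended the call. RVE4, another of the 7 listed, had -0.045 ± 0.19 and did not pass. RVE2 had -1.06 ± 0.37 and an adjusted p of 0.0523.

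The lowest log2 fold change of the list was that of AT4G33980, a gene without a named product in the annotation used. It had 17, 24 and 27 counts in the libraries labelled pp7l-1, against 48, 63 and 38 in the wild type, and fell by 1.26 ± 0.26 on the log2 scale (adjusted p = 0.00293). Its call and that of SKIP held without any single library. PRR3, a pseudo-response regulator that protects TOC1 from ZTL, had 0.56 ± 0.37 and did not pass, and neither did the 2 tested ELF4-like genes or the 2 subunits of casein kinase 2, which phosphorylates CCA1.

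**Figure D4:**
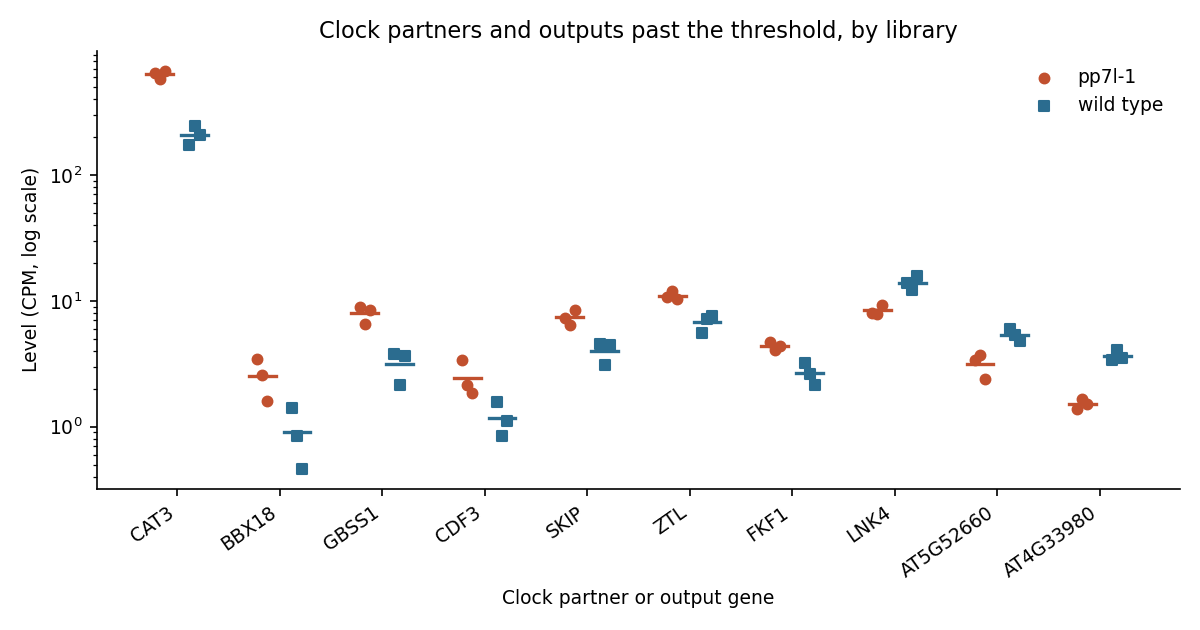
Levels in CPM on a log axis of the 10 partner and output genes with an edgeR adjusted p below 0.05, 1 point per library with a bar at the mean, in order of log2 fold change. The pp7l-1 circles lie above the wild-type squares in the first 7 genes and below them in LNK4, AT5G52660 and AT4G33980, with no overlap in any.

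Of 14 genes known as outputs of the clock 12 were tested, of which 3 rose, 0 fell and 9 did not pass (25.0% called, near the 21.9% over all tested genes). CAT3 (AT1G20620), a catalase whose transcript peaks in the evening, was at 647, 579 and 673 CPM in libraries labelled pp7l-1, against 172, 243 and 209 CPM in the wild type, a log2 fold change of 1.61 ± 0.23 (edgeR adjusted p = 0.000202). CAT2 (AT4G35090), the catalase that peaks in the morning, had -0.20 ± 0.22 and did not pass. GBSS1 (AT1G32900), the starch synthase that CCA1 and LHY activate, rose by 1.34 ± 0.24, at 8.85, 6.54 and 8.51 CPM under the label pp7l-1, against 3.75, 2.12 and 3.62 CPM in the wild type (adjusted p = 0.00109). Both calls held without any single library.

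CDF3 (AT3G47500), 1 of 4 listed CDF genes, rose by 1.04 ± 0.35 (adjusted p = 0.0421), with 3.36, 2.16 and 1.84 CPM in libraries labelled pp7l-1 and 1.56, 0.836 and 1.11 CPM in the wild type. It did not pass with DESeq2 (0.0853) or limma voom (0.0517), nor without pp7l-1 replicate 1 or replicate 2 or 3 of the wild type. The clock-driven RNA-binding protein genes GRP7 and GRP8 had log2 fold changes of -0.12 ± 0.21 and 0.38 ± 0.29. PIF4 and PIF5, growth factors that the evening complex represses, had 0.52 ± 0.20 and 0.18 ± 0.23, and neither passed (adjusted p = 0.0782 and 0.631). The flowering genes CO and FT were below the count filter, and FT had 0, 0 and 1 counts in the libraries labelled pp7l-1 and 1, 1 and 0 in the wild type.

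Of all tested genes, listed or not, 1243 had an evening element in the 1000 bases before their start, TOC1, GI, PRR5 and LUX included. Their median log2 fold change was 0.010, against -0.0075 over all tested genes, with 154 higher and 149 lower (24.4% called, against 21.9% over all tested genes). Over the 6 libraries, the levels most like that of TOC1 were those of GAD (AT5G17330), AT5G10700 and AZG1 (AT3G10960), with Pearson's r of 0.997, 0.993 and 0.992 of log2 CPM. For CCA1 they were AT3G57830, cPT1 (AT2G17570) and AT5G17660, with 0.992, 0.974 and 0.972. Out of 18107 genes, 466 had r over 0.9 with TOC1 and 67 with CCA1. With 6 points that share their scaling and their genotypes, these likenesses are a description only, and the counts of CCA1 are low.

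**Figure D5:**
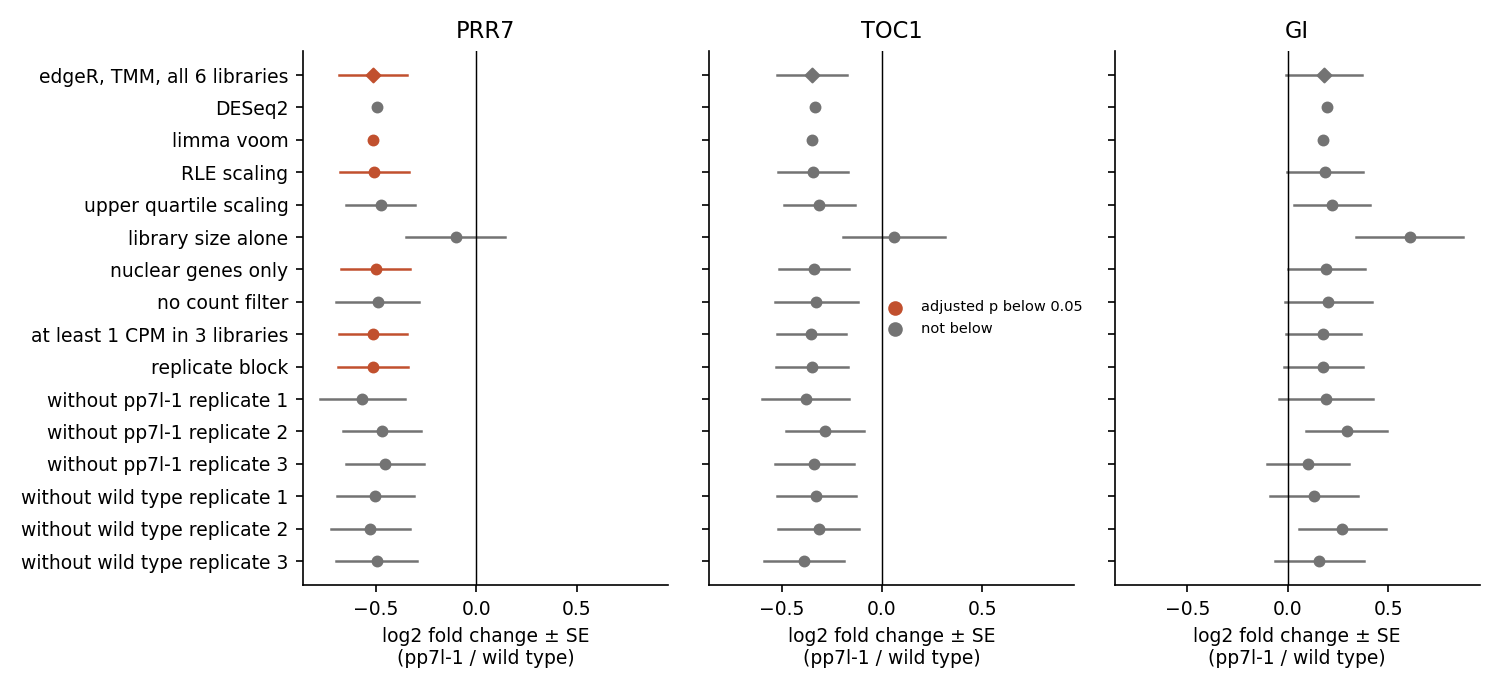
Log2 fold change of pp7l-1 over wild type for PRR7, TOC1 and GI in each of 16 fits, with its SE in the edgeR fits, and orange where the adjusted p is below 0.05. PRR7 keeps a value between -0.57 and -0.46 in the 15 fits other than that on library size alone, and passes in 6 of 16, while TOC1 and GI pass in 0.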

How the data were processed

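Total RNA of whole seedlings was sequenced from Illumina TruSeq libraries, per the labels' protocols. The authors deposited raw counts of reads per gene, 1 table for each of 6 libraries. Trimmomatic, FastQC, TopHat2 2.1.1 and featureCounts were used, with TAIR10 as the build, per the submitters' processing notes. The annotation counted, the strand setting and the treatment of shared reads are not given in the sources used here. Names, exon lengths, coordinates and sequences come from RefSeq's TAIR10.1.

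Genes were filtered with filterByExpr (minimum count 10), scaled by TMM and tested in edgeR 4.0.16 (R 4.3.3) by its quasi-likelihood method, on genotype alone. Benjamini-Hochberg adjustment ran over 18115 genes, with a threshold of 0.05. No label states separate cultures for the replicates, and p-values thus measure spread between libraries that may be technical. On simulated data of the same 18115 genes, 67 of 100 genes changed by 1 on the log2 scale were recovered, and 100 of 100 changed by 2. The changed genes were drawn only from the more abundant genes of the wild type, with a spread common to all genes. This recovery therefore does not apply to the scarce CCA1, LHY, RVE8, PRR9 and ELF4. Far fewer genes were changed than the 3972 called in the data, so the adjusted threshold was harder to pass in the simulation. Changes below 1, as in PRR7, PRR5, GI, TOC1 and LUX, were not simulated, and the recovery does not apply to those genes either.

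Alternatives were DESeq2 1.42.0, limma 3.58.1 (voom), other scalings and filters, nuclear genes only, a replicate block, and each library left out. The members and lists were chosen with earlier results of these data known, and the partner and output lists hold textbook clock genes. Genes named are all members, partners and outputs past the threshold, close partners of members, and the likeness genes. RVE2, LKP2, LNK3, CAT2, GRP7, GRP8, PIF4, PIF5 and FT were named after their values were seen. Exact intervals cover counting error only.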

Additional observations from a re-analysis of the deposited data

How the results depend on the processing

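Of the core clock, 1 gene fell with limma voom, RLE scaling, nuclear genes only, the filter at 1 CPM and the replicate block, and 0 fell with DESeq2, upper quartile scaling, library size alone, no count filter or any library left out. Without 1 library, over all genes 1274 to 2146 rose and 1384 to 2219 fell, of the partners 2 to 5 rose and 1 to 3 fell, and of the outputs 2 to 4 rose and 0 to 1 fell. Scaled on library size alone, 4493 genes rose and 759 fell, with 9 partners higher, 1 lower and 5 outputs higher. CCA1 then had 0.0999, TOC1 0.061, LUX 0.26, RVE4 0.38 and LNK2 0.10, all reversed, and none passed. That scaling shifted the median of all genes by 0.41. The plastid share of the counts differed between the genotypes, and whether it had a part in the shift was not tested. PRR5 had -0.0072 with limma voom. Without 1 library, CCA1 ranged from -0.76 to 0.12, RVE8 from -0.45 to 0.97, PRR5 from -0.12 to 0.28, ELF3 from -0.025 to 0.25 and RVE4 from -0.15 to 0.091, and BOA passed without pp7l-1 replicate 3 (-1.36, adjusted p = 0.0320).

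No clear pairing of the libraries by replicate number was seen, though 3 libraries per genotype are too few to decide it. The correlation of deviations between same-numbered libraries was 0.1004, -0.0280 and 0.0535, and not every library correlated best with its own number. With the number as a block, 5 partners fell where 3 did without it, and 1 core gene fell in both fits. Depth limits CCA1, LHY, RVE8, PRR9 and ELF4, with at most 30 counts per library.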
